A study of Mus musculus with 8 samples.

Results

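Transcripts of 10 genes of the integrated stress response and of endoplasmic reticulum (ER) stress were read in mouse embryonic stem cells: Ddit3, Cebpb, Atf4, Trib3, Chac1, Asns, Ddit4, Hspa5, Xbp1 and Herpud1. A gene was taken from every probe set that the array annotation assigns to its symbol alone, which gave 22 probe sets for the 10 genes among 18193 genes with such a probe set. All cells were of the line NG4, all were reverse transfected with siRNA and all were harvested 48 h later. The 4 groups, with 2 arrays each, differed in the siRNA alone: siNonTarget (the control), siSox2 (against a pluripotency transcription factor), siPsmd14 (against the deubiquitinase subunit of the proteasome lid) and siDdb1 (against the adaptor of CUL4 ubiquitin ligases). No untransfected group was analysed here, so the control cells had also undergone transfection. Whether the 2 arrays of a group stem from separate cultures is not stated, and the spread behind each p-value may therefore be a technical one.

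Stress that impairs protein folding in the ER, starves the cell of amino acids or blocks the proteasome can lead kinases to phosphorylate the translation factor eIF2. General translation then falls while the mRNA of Atf4 is translated more, and ATF4 protein switches on amino acid synthesis genes such as Asns and stress genes such as Ddit3, Trib3 and Chac1. In parallel, the ER sensors IRE1 and ATF6 raise chaperones such as Hspa5 and degradation factors such as Herpud1, IRE1 by splicing the mRNA of Xbp1. Much of this control acts on translation, splicing or protein stability, which an array of mRNA levels does not read.

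Values below are log2 intensities, and a difference of 1 is a doubling on this scale. A gene was represented by its brightest probe set, a difference was called where the limma adjusted p was under 0.05 over all 45037 probe sets. With 2 arrays per group, precision is limited by their number. The array medians lay between 4.78 and 4.85. Signal of the targeted gene was 31.9% of control for Ddb1 in siDdb1, 76.7% for Sox2 in siSox2 and 86.6% for Psmd14 in siPsmd14, and none of these differences was called (limma adjusted p = 0.147, 0.301 and 0.522). The siDdb1 arrays were unequal in this, with Ddb1 at 9.67 on replicate 1 and 10.73 on replicate 2, against 11.88 and 11.81 in siNonTarget. The stem cell factors Pou5f1 (12.85 to 13.30) and Nanog (11.35 to 12.13) were bright on all 8 arrays. Of 14 pluripotency markers, 14 in siPsmd14, 13 in siDdb1 and 12 in siSox2 had a log2 difference below 0 (medians -0.47, -0.35 and -0.39). Of these 1 was called, in siSox2. Over all genes the share called, in either direction, was 1.89% in siPsmd14, 0.044% in siDdb1 and 4.28% in siSox2. Their summed intensity was 63210 to 68340 in siNonTarget, 52850 to 56620 in siSox2, 52000 to 54980 in siPsmd14 and 57700 to 59000 in siDdb1, and the part of this in the stress gene values was not tested. The fibroblast collagens Col1a1 (3.51 to 4.20) and Col3a1 (3.20 to 3.49) lay below the array medians. Of 14 trophectoderm markers 9 rose in siSox2, 3 in siPsmd14 and 0 in siDdb1. Their summed intensity was 3043 to 3509 in siNonTarget, 15990 to 28720 in siSox2, 10380 to 12090 in siPsmd14 and 4187 to 4446 in siDdb1, with the keratins Krt8 and Krt18 the brightest of the list in siPsmd14. No marker was at 0, and Cdx2, the factor that directs trophectoderm fate, read 5.10 and 5.19 in siNonTarget, 6.73 and 6.87 in siSox2, 5.63 and 5.40 with siPsmd14, and 5.68 and 5.68 in siDdb1. Of 14 primitive endoderm markers 5 rose and 1 fell in siSox2 and 2 rose in siPsmd14. Their summed intensity was 1721 to 1794 in siNonTarget, 3233 to 4659 in siSox2, 2466 to 2681 in siPsmd14 and 1835 to 1946 in siDdb1. Of 20 measured fibroblast markers 3 rose and 1 fell in siSox2 and 2 rose in siPsmd14, with summed intensities of 3073 to 3721 in siNonTarget, 4886 to 8284 in siSox2, 5842 to 5991 in siPsmd14 and 4004 to 4852 in siDdb1.

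The promoters of 6 of the genes are shown because the regulators named above bind known elements in this class of gene. They are the 2 genes called against the control and the 4 uncalled genes with a motif match before the start. The uncalled Atf4, Ddit4 and Xbp1 had no match, and that of Trib3 lay past its start. The stretches shown are therefore no comparison of called with uncalled genes. Sequences are from RefSeq (GRCm38.p6), 150 bases each, written 5′ to 3′ on the gene's strand. Capitals mark a match to 1 of the 4 motifs searched on both strands of the windows from 250 bases before to 50 bases after the start. The Ddit3 stretch lies at chr10:127290643-127290792 (plus strand), Cebpb at chr2:167688765-167688914 (plus), Hspa5 at chr2:34771940-34772089 (plus), Herpud1 at chr8:94386279-94386428 (plus), Asns at chr6:7693210-7693359 (minus) and Chac1 at chr2:119350992-119351141 (plus). All but the Chac1 stretch end at the base before the start. The Chac1 stretch runs from position -250 to -101, where its match lies.
Ddit3: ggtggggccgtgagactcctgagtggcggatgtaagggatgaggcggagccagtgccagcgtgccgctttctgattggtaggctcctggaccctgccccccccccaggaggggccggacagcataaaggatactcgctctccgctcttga
Cebpb: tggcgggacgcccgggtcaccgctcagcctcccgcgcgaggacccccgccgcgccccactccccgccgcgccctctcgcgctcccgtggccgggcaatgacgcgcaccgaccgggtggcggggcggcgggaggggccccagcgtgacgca
Hspa5: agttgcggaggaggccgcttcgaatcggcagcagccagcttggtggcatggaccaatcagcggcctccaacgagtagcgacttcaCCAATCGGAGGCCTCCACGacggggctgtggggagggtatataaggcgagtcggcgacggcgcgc
Herpud1: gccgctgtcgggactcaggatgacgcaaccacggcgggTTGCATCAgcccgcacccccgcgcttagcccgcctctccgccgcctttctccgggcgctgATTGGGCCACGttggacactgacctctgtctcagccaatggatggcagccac
Asns: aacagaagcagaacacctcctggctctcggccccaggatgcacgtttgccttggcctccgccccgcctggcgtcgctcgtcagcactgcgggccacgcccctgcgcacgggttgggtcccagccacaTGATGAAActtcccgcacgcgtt
Chac1: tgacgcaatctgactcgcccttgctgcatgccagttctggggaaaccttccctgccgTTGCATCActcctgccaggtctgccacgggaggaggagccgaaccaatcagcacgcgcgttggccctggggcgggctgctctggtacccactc

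The core of the C/EBP-ATF response element, TTNCATCA with N for any base, was found in 4 of the 10 windows: at positions -193 to -186 of Chac1, -23 to -16 of Asns (on the other strand), -112 to -105 of Herpud1 and 15 to 22 of Trib3, which is past its start. It occurs in 3.97% of all 32851 promoter windows of this length. The ER stress response element, CCAAT followed by 9 bases and then CCACG, was found at -65 to -47 of Hspa5 and in 0.119% of all windows. Element II of that kind, ATTGG and then CCACG after 1 base, was found at -52 to -42 of Herpud1 and in 0.0365% of all windows. The core of the unfolded protein response element, TGACGTGG, was in none of the 10 windows and in 0.676% of all. No match overlapped another. The windows of Ddit3, Cebpb, Atf4, Ddit4 and Xbp1 held none of these letters, which says nothing about elements elsewhere.

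Against siNonTarget, Cebpb was called in siSox2 and siPsmd14, Ddit3 was called in siPsmd14, and none of the 10 genes was called in siDdb1. In siPsmd14, 2 of 10 genes were called, both higher, where 1.89% of all genes were called. In siSox2 1 of 10 was called, where 4.28% of all genes were, and in siDdb1 0 of 10, where 0.044% were. At an unadjusted limma p under 0.05, 5 of the 10 passed in siPsmd14, 2 in siDdb1 and 4 in siSox2, beside 17.1%, 9.86% and 19.1% of all genes. The 10 genes had a median log2 fold change of 0.20 for siPsmd14, then 0.02 for siDdb1 and -0.02 for siSox2, beside -0.01, -0.01 and -0.03 over all genes. The genes and the lists below were chosen with earlier results of these data known. Counts set beside the share of all genes, here and below, are therefore a description and not a test.

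**Figure D1:**
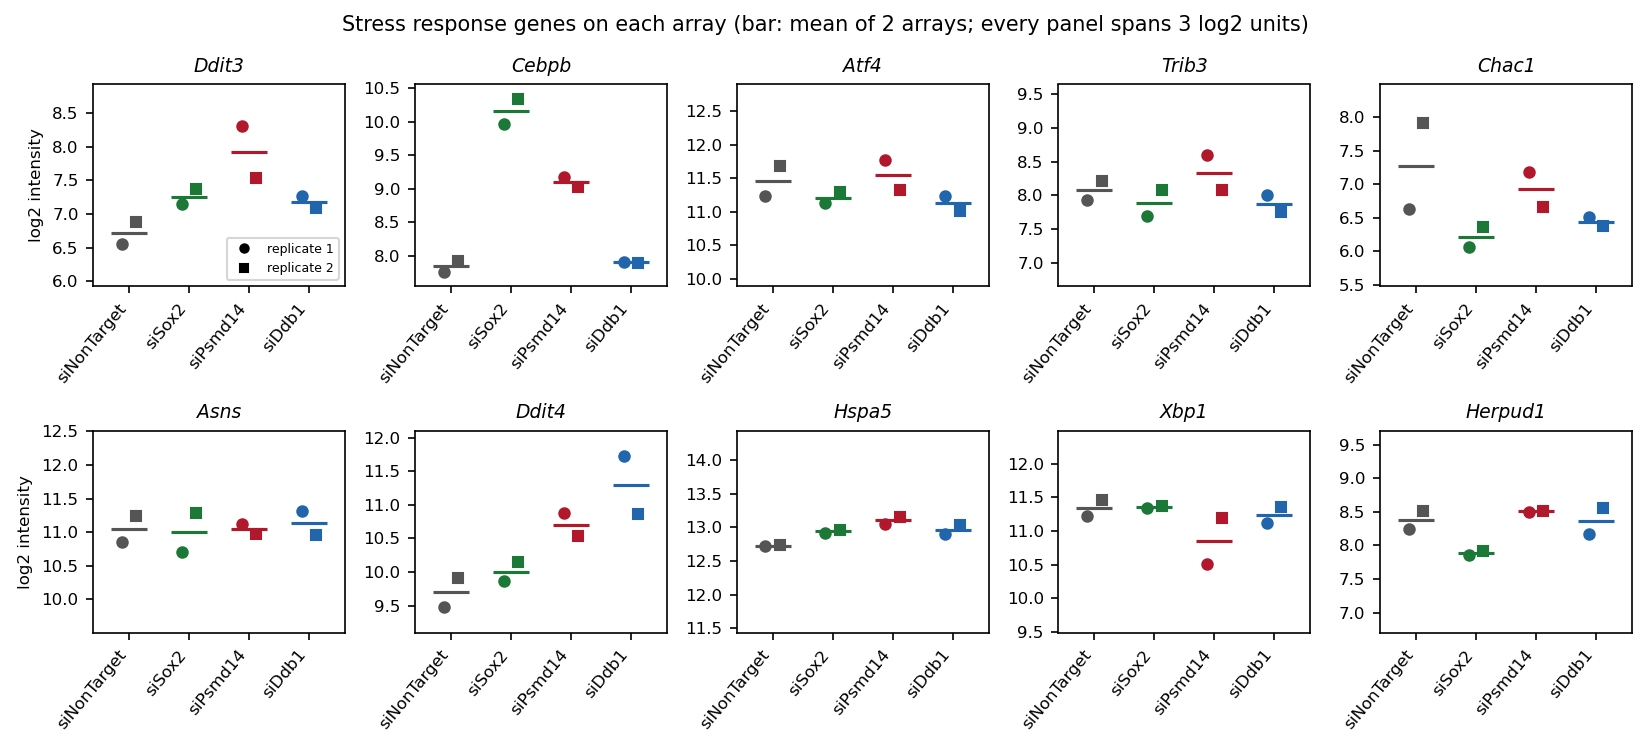
Log2 intensity of the brightest probe set of each of the 10 genes on the 8 arrays (circle, replicate 1; square, replicate 2; bar, mean of the 2 arrays), with every panel spanning 3 log2 units. Cebpb stands highest in siSox2 (9.97 and 10.34) and next in siPsmd14 (9.18 and 9.02), Ddit4 stands highest in siDdb1 (11.72 and 10.86), and Asns lies between 10.70 and 11.31 in all groups.

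Cebpb encodes the transcription factor C/EBP-beta, which pairs with ATF4 and with CHOP on stress elements and also acts in placental and fat cell differentiation. It read 7.77 and 7.93 in siNonTarget, 9.97 and 10.34 in siSox2, 9.18 and 9.02 with siPsmd14, and 7.92 and 7.90 in siDdb1. The siSox2 arrays were the highest, the siPsmd14 arrays lay between and overlapped no other group, and the siDdb1 arrays lay within the range of the control. Cebpb rose in siSox2 by 2.30 (SE 0.15, n = 2 arrays per group, 4.94-fold, limma adjusted p = 0.000332) and in siPsmd14 by 1.25 (SE 0.15, 2.39-fold, limma adjusted p = 0.00966). In siDdb1 the log2 difference was 0.06, with a 95% interval from -0.28 to 0.40. By the brightest probe set, each step of the order siSox2, siPsmd14, siDdb1 was called. Cebpb was lower in siPsmd14 than in siSox2 (-1.05, limma adjusted p = 0.00963) and higher in siPsmd14 than in siDdb1 (1.20, limma adjusted p = 0.0166). The last step, siDdb1 to siNonTarget, was not called (limma adjusted p = 0.963). The siPsmd14 call over siDdb1 held in 10 of 17 alternative fits and was lost without either siNonTarget array (limma adjusted p = 0.0577 for each), siPsmd14 replicate 1 (0.14) or either siDdb1 array (0.13 and 0.0836). The call against siSox2 held in 15 of 17 and was lost without siSox2 replicate 2 (-0.87, adjusted p = 0.0739).

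The second, dimmer Cebpb probe set gave 2.02 in siSox2 (limma adjusted p = 0.00248), 0.88 in siPsmd14 (limma adjusted p = 0.101) and -0.01 in siDdb1. Its call in siPsmd14 was therefore missing, with the same sign. For siPsmd14 over siDdb1 it gave 0.88 and was not called (limma adjusted p = 0.153). For siPsmd14 against siSox2 it gave -1.14 and was called (limma adjusted p = 0.0301). The siSox2 call of the brightest probe set was kept in 17 of 17 alternative fits. The siPsmd14 call was lost without siNonTarget replicate 1 (1.18, limma adjusted p = 0.101), without siNonTarget replicate 2 (1.33, adjusted p = 0.11) and without siPsmd14 replicate 1 (1.17, adjusted p = 0.0758). The trophectoderm sums given above were also highest in siSox2 and next in siPsmd14, and their part in the Cebpb values was not tested. Neither can more RNA per cell be told apart from more cells that carry a transcript in these bulk samples, for any gene named here.

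Ddit3 encodes CHOP, the ATF4-induced factor that promotes cell death under lasting stress. It read 6.55 and 6.88 in siNonTarget, 7.15 and 7.37 in siSox2, 8.30 and 7.54 with siPsmd14, and 7.27 and 7.09 in siDdb1. All 6 knockdown arrays lay above both control arrays, and siPsmd14 replicate 1 was the highest. Ddit3 rose in siPsmd14 by 1.21 (SE 0.24, n = 2 arrays per group, 2.31-fold, limma adjusted p = 0.0482), just past the threshold. The log2 differences in siSox2 (0.54, 95% interval 0.01 to 1.07) and siDdb1 (0.46, 95% interval -0.07 to 0.997) were not called (limma adjusted p = 0.323 and 0.681). No neighbouring pair in the order siPsmd14, siSox2, siDdb1, siNonTarget was called (limma adjusted p = 0.202, 0.943 and 0.681).

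The second Ddit3 probe set read 5.21 and 5.41 in siNonTarget, 5.63 and 6.03 in siSox2, 6.32 and 5.93 with siPsmd14, and 6.33 and 5.18 in siDdb1. Its difference in siPsmd14 was 0.81 (limma adjusted p = 0.29), with the siDdb1 arrays on both sides of the control pair. The Ddit3 call in siPsmd14 held in 3 of 17 alternative fits, with adjusted p from 0.00904 to 0.27, and was lost without any single array but siPsmd14 replicate 2. The difference was 0.83 without siPsmd14 replicate 1 (limma adjusted p = 0.196), 1.04 without siNonTarget replicate 1 (adjusted p = 0.27) and 1.37 without siNonTarget replicate 2 (adjusted p = 0.203). The array with the highest Ddit3 value, siPsmd14 replicate 1, also had the largest 3′ minus 5′ difference of the Actb control probes, 0.346 against 0.0962 to 0.214 on the other 7 arrays, and its part in the Ddit3 value was not tested. The 18S rRNA control read 13.09 on siPsmd14 replicate 2 and 12.71 on siDdb1 replicate 2, against 10.68 to 11.70 on the other 6 arrays, and its part in the Ddit3 and Ddit4 values was not tested either.

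Atf4 encodes the central factor of the response and is itself controlled mainly by translation. Its brightest probe set read 11.24 and 11.68 in siNonTarget, 11.14 and 11.29 in siSox2, 11.77 and 11.32 with siPsmd14, and 11.23 and 11.02 in siDdb1. The siPsmd14 and siSox2 arrays overlapped the control pair, and the siDdb1 pair lay just below it. The log2 differences were 0.09 in siPsmd14 (95% interval -0.36 to 0.53), -0.25 in siSox2 (-0.69 to 0.20) and -0.34 in siDdb1 (-0.78 to 0.11), none called. Of the 2 other Atf4 probe sets, one, of a type that may also bind related transcripts, gave 0.59 in siPsmd14 (limma adjusted p = 0.28) and differences of the opposite sign to the brightest in siDdb1 (0.06) and siSox2 (0.10), and the other, at 3.76 to 4.54 on all arrays, lay below the array medians.

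Asns, the asparagine synthetase gene that ATF4 induces when amino acids run short, differed little. It read 10.86 and 11.24 in siNonTarget, 10.70 and 11.29 in siSox2, 11.13 and 10.97 with siPsmd14, and 11.31 and 10.96 in siDdb1, with all groups overlapping. The difference in siPsmd14 was 0.00 with a 95% interval from -0.50 to 0.50, so a rise of the size seen for Ddit3 lies outside it. The intervals were -0.41 to 0.58 in siDdb1 and -0.55 to 0.44 in siSox2. Its second probe set, of a type that may also bind related transcripts, gave 0.10, 0.04 and -0.10 in siPsmd14, siDdb1 and siSox2.

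Trib3, a pseudokinase that ATF4 and CHOP induce and that restrains ATF4 in turn, read 7.93 and 8.22 in siNonTarget, 7.70 and 8.08 in siSox2, 8.60 and 8.08 with siPsmd14, and 8.0 and 7.75 in siDdb1. Every knockdown pair overlapped the control pair, and this probe set is of a type that may also bind related transcripts. Its log2 differences were 0.27 in siPsmd14 (95% interval -0.21 to 0.74), -0.20 in siDdb1 and -0.18 in siSox2, and the second probe set had the same signs.

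Chac1, which encodes an enzyme that degrades glutathione, had the widest control pair of the 10 genes. It read 6.63 and 7.91 in siNonTarget, 6.06 and 6.36 in siSox2, 7.18 and 6.67 with siPsmd14, and 6.51 and 6.37 in siDdb1. Both siSox2 and both siDdb1 arrays lay below the control pair, and the siPsmd14 arrays lay within it. The differences were -1.06 in siSox2 (SE 0.35, limma adjusted p = 0.182), -0.82 in siDdb1 (adjusted p = 0.605) and -0.34 in siPsmd14 (adjusted p = 0.735). Without siNonTarget replicate 1 the siSox2 difference was -1.70 with a limma adjusted p of 0.0321, and without siNonTarget replicate 2 it was -0.42 (adjusted p = 0.59). Leaving out the same arrays gave -1.46 and -0.18 for siDdb1, and -0.98 and 0.30 for siPsmd14, none of them called.

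Ddit4 encodes REDD1, an inhibitor of mTORC1 that is induced by ATF4, by low oxygen and by p53. It read 9.47 and 9.92 in siNonTarget, 9.86 and 10.15 in siSox2, 10.87 and 10.53 with siPsmd14, and 11.72 and 10.86 in siDdb1. All siPsmd14 and siDdb1 arrays were above the control and the siSox2 arrays, and siDdb1 replicate 1 was the highest. Its difference against siNonTarget was 1.59 in siDdb1 (SE 0.27, 3.02-fold, 95% interval 0.97 to 2.22) and 1.01 in siPsmd14 (SE 0.27, 2.01-fold, 95% interval 0.38 to 1.63), and neither was called (limma adjusted p = 0.15 and 0.129). In siDdb1 its unadjusted limma p was 0.000257, and 0.275% of all genes had a smaller one. In siSox2 the difference was 0.31. The array with the highest Ddit4 value, siDdb1 replicate 1, also had the lower Ddb1 signal of its pair (9.67 against 10.73). The part of this in the Ddit4 values was not tested.

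Ddit4 was higher in siDdb1 than in siSox2 (1.29, SE 0.27, n = 2 arrays per group, 2.44-fold, limma adjusted p = 0.0421). That call held in 8 of 17 alternative fits. It was lost without any single array but siDdb1 replicate 2, with values from 0.86 without siDdb1 replicate 1 (limma adjusted p = 0.189) to 1.43 without siSox2 replicate 2 (adjusted p = 0.15). Without siDdb1 replicate 2 the difference from siNonTarget was 2.02 and was called (limma adjusted p = 0.0319), and this was the sole call among the 17 fits. Against siPsmd14 the arrays of siDdb1 overlapped, with -0.59 for siPsmd14 minus siDdb1 (95% interval -1.21 to 0.03). Ddit4 has 1 probe set on the array, so no other reading of it was at hand.

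**Figure D2:**
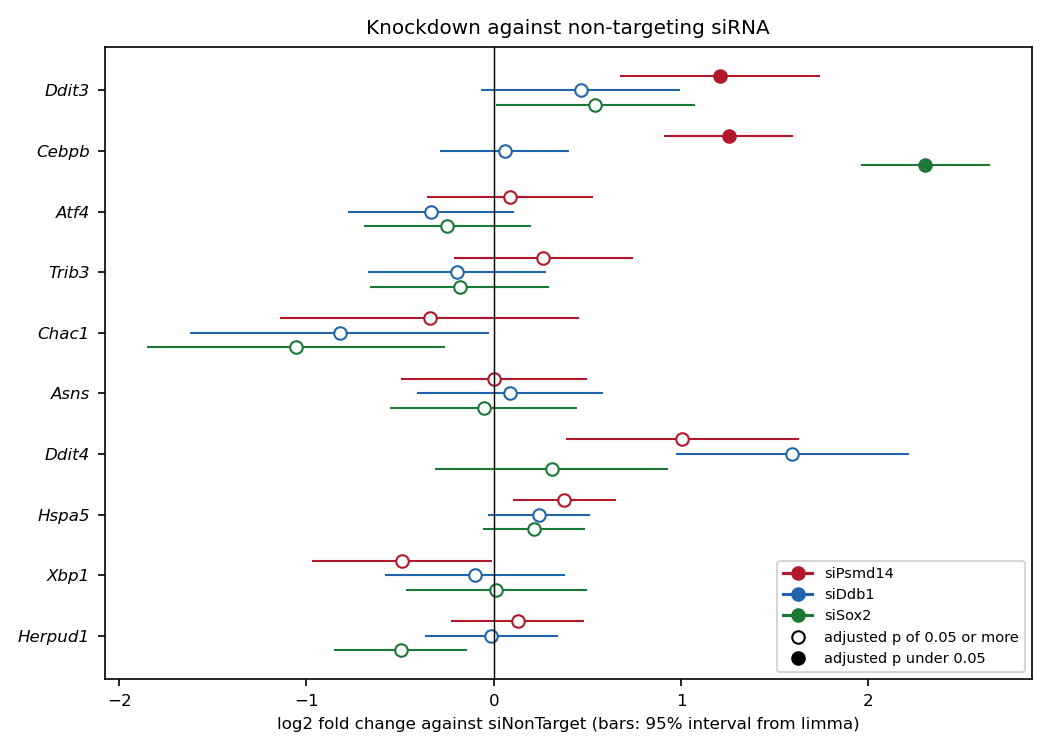
Log2 fold change of each gene against siNonTarget in siPsmd14, siDdb1 and siSox2, with 95% intervals from the limma fit of all 8 arrays (filled points, adjusted p under 0.05). The 3 filled points are Cebpb in siSox2 (2.30) and in siPsmd14 (1.25) and Ddit3 in siPsmd14 (1.21), while the intervals of Ddit4 in siDdb1 (0.97 to 2.22) and siPsmd14 (0.38 to 1.63) also lie above 0 without passing the adjusted threshold.

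Hspa5 encodes BiP, the main chaperone of the ER lumen, which holds the stress sensors inactive. It was the brightest of the 10 genes, with 99.2% of probe sets dimmer. Its arrays read 12.72 and 12.73 in siNonTarget, 12.92 and 12.97 in siSox2, 13.06 and 13.15 with siPsmd14, and 12.89 and 13.04 in siDdb1. By this brightest probe set all 6 knockdown arrays lay above both control arrays, by small amounts. The differences were 0.38 in siPsmd14 (SE 0.12, 1.30-fold, limma adjusted p = 0.186), 0.24 in siDdb1 (adjusted p = 0.676) and 0.22 in siSox2 (adjusted p = 0.47), none called. The 2 other probe sets gave 0.58 and 0.40 in siPsmd14, 0.27 and 0.10 in siDdb1, and 0.34 and 0.10 in siSox2. The dimmest is of a type that may also bind related transcripts. On it, the siSox2 (8.85 and 8.76) and siDdb1 (8.81 and 8.82) arrays lay within the control pair (8.53 and 8.89).

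Xbp1 encodes the factor made active when IRE1 splices its mRNA, and the array does not tell the spliced from the unspliced form. It read 11.22 and 11.46 in siNonTarget, 11.34 and 11.37 in siSox2, 10.51 and 11.19 with siPsmd14, and 11.12 and 11.36 in siDdb1. The low value was that of siPsmd14 replicate 1, while replicate 2 of that group lay just below the control pair. The difference in siPsmd14 was -0.49 (SE 0.21, 95% interval -0.97 to -0.01, limma adjusted p = 0.336), and without siPsmd14 replicate 1 it was -0.15. That array is the one with the largest Actb 3′ minus 5′ difference (0.346), whose part in the Xbp1 value was not tested. The 3 other probe sets gave -0.47, -0.46 and -0.37 there, each with replicate 1 as the lowest of the 8 arrays. In siSox2 and siDdb1 the differences were 0.01 and -0.10.

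Herpud1 encodes a membrane protein of the ER that helps to pass misfolded proteins to the proteasome. It read 8.25 and 8.51 in siNonTarget, 7.85 and 7.91 in siSox2, 8.50 and 8.51 with siPsmd14, and 8.17 and 8.55 in siDdb1. The siSox2 pair was the lowest and overlapped no other group, and the other 3 groups overlapped. The siSox2 difference was -0.50 (SE 0.16, 95% interval -0.85 to -0.14, limma adjusted p = 0.16), and Herpud1 was higher in siPsmd14 than in siSox2 by 0.62 (limma adjusted p = 0.0783), neither called. The second probe set gave -0.28 in siSox2. In siPsmd14 the Herpud1 difference was 0.13 (95% interval -0.23 to 0.48), and in siDdb1 it was -0.01. The Herpud1 promoter held both a C/EBP-ATF core and an ER stress element II, whose part in these values was not tested.

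**Figure D3:**
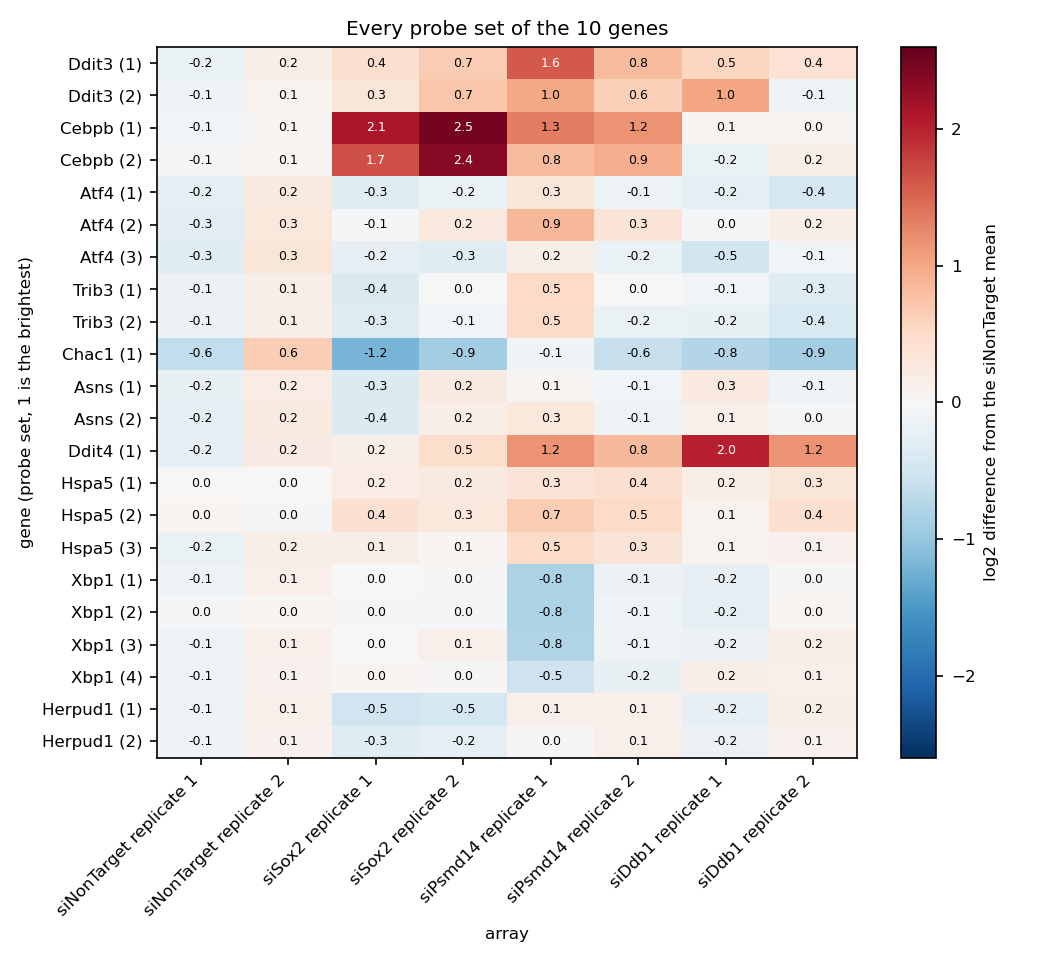
Log2 difference of each of the 22 probe sets of the 10 genes from its own siNonTarget mean on each of the 8 arrays (red, higher; blue, lower; probe sets of a gene ordered from the brightest). Both Cebpb probe sets are red in siSox2 and siPsmd14, and the 4 Xbp1 probe sets are blue on siPsmd14 replicate 1 and near 0 on most other arrays.

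Counted by separation of the arrays, 4 of 10 genes in siPsmd14 had both arrays above both control arrays (Ddit3, Cebpb, Ddit4 and Hspa5), where 22.4% of all genes did, and 1 had both below (Xbp1), where 24.1% did. In siDdb1, 3 were above (Ddit3, Ddit4 and Hspa5), beside 19.8% of all genes, and 2 below (Atf4 and Chac1), beside 22.3%. In siSox2, 3 were above (Ddit3, Cebpb and Hspa5), beside 23.3%, and 2 below (Chac1 and Herpud1), beside 29.3%. The 3 comparisons share the control arrays, so that Ddit3 and Hspa5 lay above them in all 3 is not 3 separate observations. These counts use the brightest probe set. A dimmer probe set of Ddit3 and of Hspa5 overlapped the control in siDdb1, and that of Hspa5 also in siSox2. Both dimmer probe sets of Atf4 overlapped the control in siDdb1 as well. There the dimmer Trib3 probe set lay below the control and the dimmest Xbp1 probe set above it. In siPsmd14 a dimmer Atf4 probe set lay above the control. With 10 genes these counts are a description only.

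In every group the arrays lay further apart for these genes than for the median gene. The median distance between the 2 arrays was 0.311 for the 10 genes against 0.145 for all genes in siNonTarget, 0.252 against 0.146 in siSox2, 0.393 against 0.177 in siPsmd14 and 0.229 against 0.151 in siDdb1. In siNonTarget all 10 genes were lower on replicate 1 than on replicate 2, and the same held for all 10 in siSox2, where 47.4% and 48.8% of all genes were. In siPsmd14 and in siDdb1 7 of 10 were higher and 3 lower on replicate 1, where 48.3% and 49.4% of all genes were lower. The largest distances were -1.28 for Chac1 in siNonTarget (replicate 1 minus replicate 2), 0.86 for Ddit4 in siDdb1 and 0.76 for Ddit3 in siPsmd14. The spread between arrays was thus as wide as several of the differences between groups described above.

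Calls among other genes of the pathways stand beside the shares of all genes called, 1.89% in siPsmd14, 0.044% in siDdb1 and 4.28% in siSox2. At such shares a small count says little about a list. Of 36 measured ATF4 targets, 0 were called in siPsmd14 and in siDdb1 and 1 in siSox2, which was Slc7a3, a transporter of cationic amino acids. It fell by 2.25 on the log2 scale (limma adjusted p = 0.00418), from 11.19 and 11.31 to 9.37 and 8.63. The median of the list was -0.04 for siPsmd14, then -0.14 for siDdb1 and -0.18 for siSox2, beside -0.01, -0.01 and -0.03 over all genes. Of the 36, 22 lay below 0 in siPsmd14, 28 in siDdb1 and 31 in siSox2. An unadjusted limma p under 0.05 was seen for 7 of the 36 in siPsmd14, 4 in siDdb1 and 9 in siSox2, beside 17.1%, 9.86% and 19.1% of all genes. The smallest p in siPsmd14 belonged to Ppp1r15a, the GADD34 gene that lets eIF2 be dephosphorylated, and to Atf3, a stress-induced repressor, neither called. Ppp1r15a read 8.89 and 8.90 in siNonTarget and 10.54 and 9.61 in siPsmd14 (1.18, limma adjusted p = 0.0878), and Atf3 read 4.55 and 5.15 against 7.47 and 6.19 (1.98, limma adjusted p = 0.11). In siDdb1 they were Gpt2, an alanine aminotransferase gene (-0.71, limma adjusted p = 0.392), and Slc7a3 (-0.72, adjusted p = 0.532), also not called.

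Of 30 targets of XBP1 and ATF6, 0 were called in siPsmd14 and siDdb1 and 1 in siSox2, Crebrf, which encodes a regulator of the CREB3 factors and fell by 0.94 (limma adjusted p = 0.034). The shares of all genes called were again 1.89% in siPsmd14, 0.044% in siDdb1 and 4.28% in siSox2. In the same order the list medians were 0.03, 0.06 and 0.14, beside -0.01, -0.01 and -0.03 over all genes. Of the 30, 17 lay above 0 in siPsmd14, 21 in siDdb1 and 24 in siSox2. Of the 30, 7 in siPsmd14, 2 in siDdb1 and 9 in siSox2 had an unadjusted limma p under 0.05, again beside 17.1%, 9.86% and 19.1% of all genes. The leading chaperone genes in siPsmd14, Dnajc3 (0.75, limma adjusted p = 0.135) and Pdia3 (0.42, adjusted p = 0.147), did not pass. In siDdb1 neither Derl3, a gene of ER-associated degradation (0.50, limma adjusted p = 0.407), nor Pdia3 (0.35, adjusted p = 0.479) did. A list of 13 measured genes, of eIF2 kinases, eIF2 phosphatase subunits and stress sensors, held no call in any knockdown. Of these, 2 in siPsmd14, 1 in siDdb1 and 0 in siSox2 had an unadjusted limma p under 0.05, where 17.1%, 9.86% and 19.1% of all genes did. The 2 in siPsmd14 were the phosphatase subunit genes Ppp1r15a and its constitutive relative Ppp1r15b (-0.37, limma adjusted p = 0.29), so no kinase or sensor was among them. Ppp1r15a is also on the lists of ATF4 targets and CHOP effectors. The smallest p in siDdb1 belonged to the amino acid sensor Eif2ak4 (-0.38, adjusted p = 0.527) and Atf6 (0.26). In siSox2 it was Atf6 (0.27, adjusted p = 0.371) and the protease gene Mbtps1 (0.24).

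**Figure D4:**
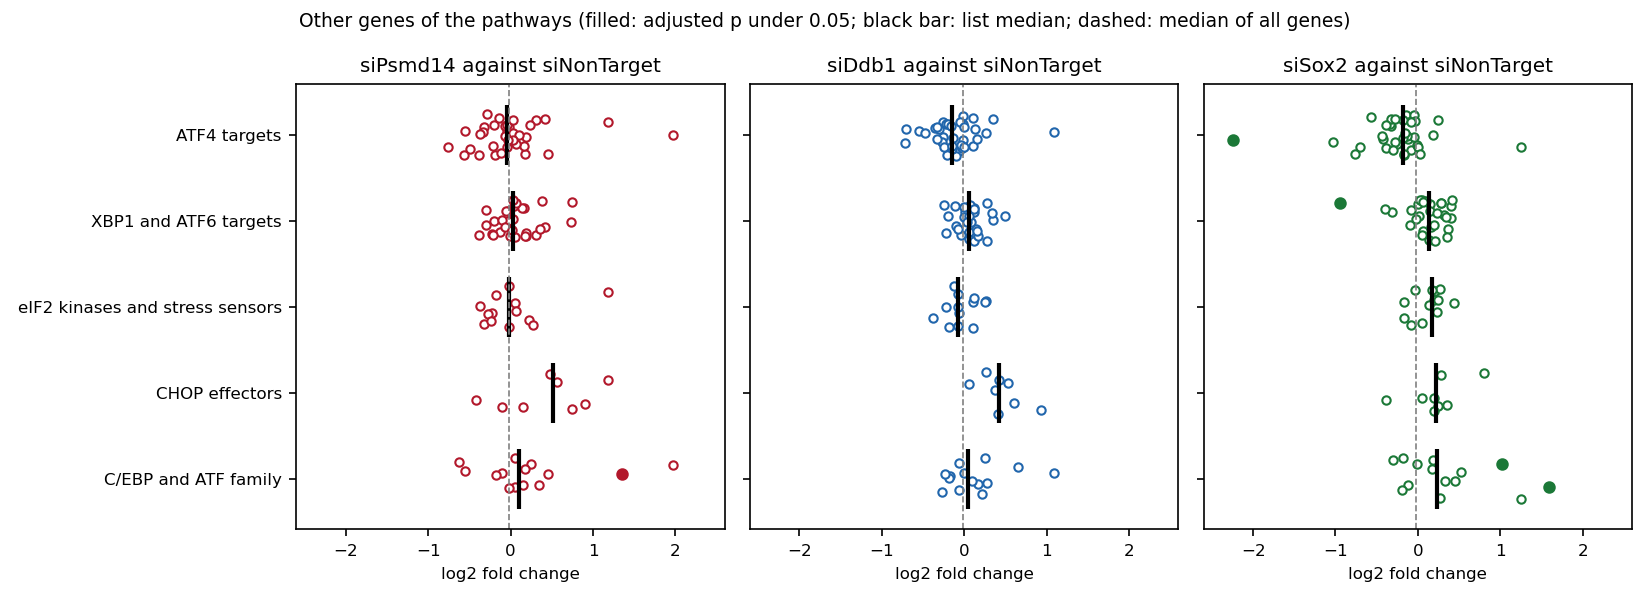
Log2 fold change against siNonTarget of the other genes of the pathways, by list and knockdown (filled, adjusted p under 0.05; black bar, list median; dashed line, median of all genes). The median of the 36 ATF4 targets is -0.04 in siPsmd14, and 5 points are filled in all, among them Slc7a3 in siSox2 (-2.25) and Creb3l1 in siPsmd14 (1.36).

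All 8 genes listed as CHOP effectors or relatives of Trib3 missed the adjusted threshold in each knockdown. Over all genes 1.89% passed it in siPsmd14, 0.044% in siDdb1 and 4.28% in siSox2. Their median was 0.52 for siPsmd14, then 0.42 for siDdb1 and 0.22 for siSox2, and 5, 5 and 2 of the 8 had an unadjusted limma p under 0.05, beside 17.1%, 9.86% and 19.1% of all genes. After Ppp1r15a, the smallest p in siPsmd14 was that of the pseudokinase gene Trib1 (0.47, limma adjusted p = 0.169). In siDdb1 it was that of Trib2 (0.53, adjusted p = 0.476) and Pmaip1, the NOXA gene (0.94, adjusted p = 0.49), and in siSox2 that of the ER oxidase gene Ero1a (0.35, adjusted p = 0.227) and Pmaip1 (0.81, adjusted p = 0.29). Among 14 measured C/EBP and ATF relatives, Creb3l1, an ER-anchored factor, rose in siPsmd14 (1.36, limma adjusted p = 0.0227). It was dim, at 4.19 and 4.78 in siNonTarget, under the medians of those arrays (4.79 and 4.83), and at 6.01 and 5.67 in siPsmd14. In siSox2 Cebpa, the partner of Cebpb in fat and placental cells, rose (1.59, 3.01-fold, limma adjusted p = 0.00678), as did the ER-anchored factor Creb3 (1.03, adjusted p = 0.0419). None rose or fell in siDdb1, where Creb3l1 (0.65, limma adjusted p = 0.442) and Atf3 (1.09, adjusted p = 0.64) had the smallest p. The medians of this list were 0.10, 0.04 and 0.23 in siPsmd14, siDdb1 and siSox2, and 4, 1 and 5 of the 14 had an unadjusted limma p under 0.05, beside the same 17.1%, 9.86% and 19.1% of all genes.

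Set against each other, the knockdowns had a called difference in 2 of the 10 genes. With 2 arrays per group, a gene that was not called was not shown to be alike. Between siPsmd14 and siSox2, 1 of 10 was called, Cebpb, beside 4.03% of all genes. Between siPsmd14 and siDdb1 it was again Cebpb, 1 of 10 beside 0.588%, though its second probe set was not called there. Between siDdb1 and siSox2 2 were called, beside 4.63%: Cebpb, lower in siDdb1 (-2.25, SE 0.15, limma adjusted p = 0.000374), and Ddit4, higher in siDdb1, as given above. The Ddit3 difference of siPsmd14 over siDdb1 was 0.74 (95% interval 0.21 to 1.28, limma adjusted p = 0.263) and over siSox2 0.66 (0.13 to 1.20, adjusted p = 0.202), so that a rise particular to siPsmd14 was not shown. Without siPsmd14 replicate 2, both were called (1.13, limma adjusted p = 0.0325, and 1.05, adjusted p = 0.0307), as was Xbp1 against siSox2 (-0.84, adjusted p = 0.0453).

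Among 11223 other genes with a mean log2 value of at least 5, the nearest to Ddit3 over the 8 arrays, each gene set to its own control mean, were the caveolar coat gene Cavin1 (root mean square difference 0.165), the microtubule-binding Clip1 (0.171), Sh3bgrl2 (0.173), Hacd4 (0.178) and the lysosomal protease gene Ctsd (0.182), where the median gene lay 0.786 away. The nearest of the other 9 stress genes was Hspa5, at 0.521, with 7.73% of genes nearer. The nearest to Hspa5 were the importin gene Kpnb1 (0.0632), the microtubule end-binding Mapre1 (0.0646), the chloride transporter gene Clcn3 (0.066), Ranbp10 (0.0699) and the Golgi GTPase gene Rab6a (0.0715). The median over all genes was 0.361, and the nearest stress gene was Asns at 0.324, with 39.4% of genes nearer. None of the 5 genes nearest to either was among the 10. With 9 stress genes among 11223 candidates, that says nothing about shared control.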

How the data were processed

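Per the submitters' processing notes the deposited intensity values were computed with RMA. The sources used here name neither its version nor its settings. The values were linear, and log2 was taken here. No scanner files were used, so no detection calls could be made. After 64 control probe sets were dropped, 45037 entered the fit. In GEO's annotation of the platform 34945 had 1 symbol, 932 several and 9160 none, and list symbols it lacked were looked up among RefSeq synonyms.

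All 8 arrays entered 1 linear model in limma 3.58.1 (R 4.3.3, lmFit and eBayes, no block, 9.02 degrees of freedom), with Benjamini-Hochberg adjustment over the 45037 probe sets. SE and 95% intervals are from that fit. A log2 fold change had an SE of 0.151 at the median. The scripts were tested on simulated data. Alternatives were brighter probe sets alone, array medians subtracted, array weights, quantile normalization, a robust eBayes with a mean trend, a fit of the 4 arrays alone, a replicate block, averaged probe sets, stricter thresholds and leaving out each array.

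Always named were the 10 genes. From each pathway list and knockdown up to 4 called genes with the smallest p were named, or the 2 with the smallest p where none was called. Genes near Ddit3 and Hspa5 were the 5 with the smallest root mean square difference. Other genes serve as checks. The members, the lists and these rules were chosen with earlier results of these data known. Same-numbered arrays did not deviate together in every pair of groups (r of the replicate differences -0.217 to 0.242), so the numbers were not taken to pair the samples.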

Additional observations from a re-analysis of the deposited data

How the results depend on the processing

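Of 60 gene and comparison values, 7 were called, and none of these 7 changed sign in any alternative. Among the others 20 changed sign at least once, in 35 of 1020 values, the largest of them 0.342 in size and none called on either side. The count of called genes in siPsmd14 against siNonTarget went from 2 to 1 (Ddit3 lost, Cebpb kept) with a mean log2 value of at least 5, the brighter 50% of probe sets, quantile normalization, array weights, only the 4 arrays compared, the replicate block, averaged probe sets or an adjusted p of 0.01. In siPsmd14 against siSox2 it was 0 with only the 4 arrays compared. In siPsmd14 against siDdb1 it was 0 with only the 4 arrays compared, with averaged probe sets or at an adjusted p of 0.01. In siDdb1 against siSox2 it went from 2 to 1 (Ddit4 lost) with only the 4 arrays compared, with the replicate block or at an adjusted p of 0.01. The replicate block changed no other call. For siSox2 and siDdb1 against siNonTarget all 11 of these settings gave the same count. Leaving out each array gave counts of 0 to 2 for siPsmd14, 0 to 1 for siDdb1 and 1 to 2 for siSox2 against siNonTarget, 0 to 3 for siPsmd14 against siSox2, 0 to 2 for siPsmd14 against siDdb1, and 1 to 2 for siDdb1 against siSox2. A fit without an array has fewer residual degrees of freedom, also where that array is in neither group compared, and a lone array is assumed to vary like the other groups. With a 2-fold minimum every count stayed the same. Beyond these constructions the cause was not tested.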
